A study of Mus musculus with 6 samples.

Results

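The genes described here were 10 astrocyte genes for glutamate uptake, potassium and water transport, cell coupling and basic metabolism: Slc1a2, Slc1a3, Glul, Kcnj10, Aqp4, Gja1, Gjb6, Aldh1l1, Aldoc and S100b. They were picked by symbol, with no measured value in the rule, and each matched 1 of the 21006 Ensembl genes in the tables. All 10 were found and all 10 passed the filter on low values. The PND group held 3 male wild type C57BL/6 mice, 18 months old by the age label although the sample titles carry a different number before an M, that had received isoflurane anesthesia with an exploratory laparotomy as a model of postoperative neurocognitive disorder (PND). The control (CON) group held 3 mice of the same sex, strain, genotype and age that had neither anesthesia nor operation. Anesthesia, abdominal surgery and the lidocaine cream and povidone iodine put on the wound were given to the PND group together and cannot be told apart. Both groups went through behavioural tests and were perfused under isoflurane before the prefrontal cortex was taken, so terminal isoflurane was shared. The tissue was taken after the Barnes maze test, several days after the operation, so the levels are not those just after surgery. Each RNA library came from the cortical tissue of 1 mouse, and levels were FPKM, sequenced fragments per kilobase of transcript scaled to the mapped fragments of the library.

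Astrocytes surround synapses and vessels. Near synapses they take up glutamate through GLT-1 (Slc1a2) and GLAST (Slc1a3) and turn it into glutamine with glutamine synthetase (Glul). They take up the potassium that active neurons release through Kir4.1 (Kcnj10), hold the water channel aquaporin-4 (Aqp4) at their endfeet on vessels, and pass ions and metabolites between cells through gap junctions of connexin 43 (Gja1) and connexin 30 (Gjb6). Aldh1l1, a folate enzyme, Aldoc, the brain aldolase of glycolysis, and S100b, a calcium-binding protein, are cytosolic proteins used to recognise astrocytes.

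The libraries were of similar size, with summed FPKM of 215640 to 240447 and an estimated 7183866 to 9387453 fragments each, and 1496 to 2289 genes were at 0. The 13 mitochondrial protein genes took 30.4% to 38.9% of the FPKM. Of 15 sample pairs, 0 held identical values. Neuron markers summed to 1080 to 1140 FPKM in the PND group and 1100 to 1150 in the CON group. Of the 9 cortex markers, 8 had a mean of at least 1 FPKM. The 9 measured choroid plexus and ependymal markers were near absent, with 8 of 9 under a mean of 1 FPKM. Striatum markers were well above that and uneven, at 199 to 250 FPKM in the PND group and 130 to 334 in the CON group, and cortex markers summed to 164 to 201 and 163 to 252. How much striatum each piece held, and its part in the levels below, was not tested. Labels named no batch.

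The question was whether genes for these housekeeping tasks of astrocytes differed after anesthesia and surgery. At the cut-off the study used, an absolute log2 fold change above 1 with an unadjusted p below 0.05, 0 of 10 genes passed in limma. Over all 18185 genes tested, 1.33% passed. At an unadjusted p below 0.05 alone, 1 of 10 was higher in the PND group (Gjb6) and 1 of 10 lower (Aqp4), where 1.73% and 1.40% of all genes were. The same pair were the genes whose groups did not overlap, 1 in each direction, against 3.78% higher and 3.88% lower among all genes. Each of these shares rests on a single gene. After Benjamini-Hochberg adjustment over all genes, the limma adjusted p was 0.9999 for each of the 10, with 0.0110% of all genes below 0.05. The median log2 fold change of the 10 was 0.037, beside 0.012 over all genes, and 6 of 10 were on the higher side. Since tissue pieces were sequenced whole, fewer astrocytes and less RNA in each astrocyte cannot be told apart in any of these values.

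**Figure D1:**
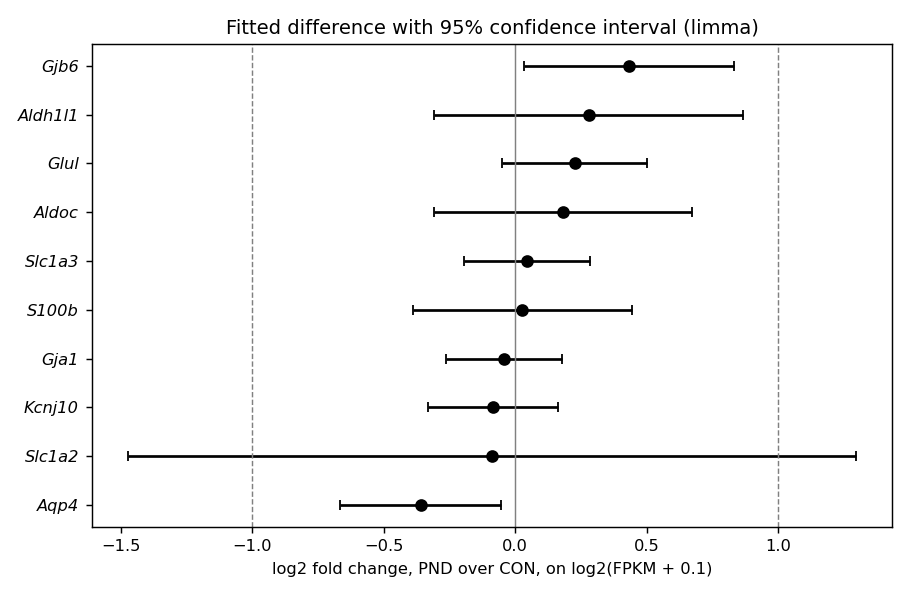
Log2 fold change of PND over CON for each of the 10 genes (points) with the 95% confidence interval from limma (bars) on the log2(FPKM + 0.1) scale. Dashed lines mark the fold cut-off of 1 on either side, only the intervals of Aqp4 and Gjb6 leave out 0, and the interval of Slc1a2 runs past both dashed lines.

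The levels of the 10 genes spread from Glul, with group means of 420.3 and 360.5 FPKM in PND and CON, to Aldh1l1, with 4.37 and 3.62 FPKM. In order of FPKM, which is a level per length, they ran Glul, Slc1a2, Slc1a3, Gja1, S100b, Aldoc, Kcnj10, Aqp4, Gjb6 and Aldh1l1. Neighbours in this order were set apart where their log2 ratio within a mouse was on average larger than its SD over the 6 mice. The order was not resolved for 3 pairs. Slc1a3 and Gja1 had a log2 ratio of 0.022 ± 0.116 (SD, n = 6), S100b and Aldoc one of 0.047 ± 0.218, and Aldoc and Kcnj10 one of 0.036 ± 0.355. In each of these pairs the first gene was higher in 3 of 6 mice. Glul was above Slc1a2 by 1.12 ± 0.97 and in 5 of 6 mice, so the top of the order also varied between animals. Kcnj10 was above Aqp4 by 0.33 ± 0.27, again in 5 of 6 mice. Slc1a2 over Slc1a3, Gja1 over S100b, Aqp4 over Gjb6 and Gjb6 over Aldh1l1 held in 6 of 6 mice, by 1.53 ± 0.95, 0.76 ± 0.25, 1.50 ± 0.54 and 1.30 ± 0.25.

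**Figure D2:**
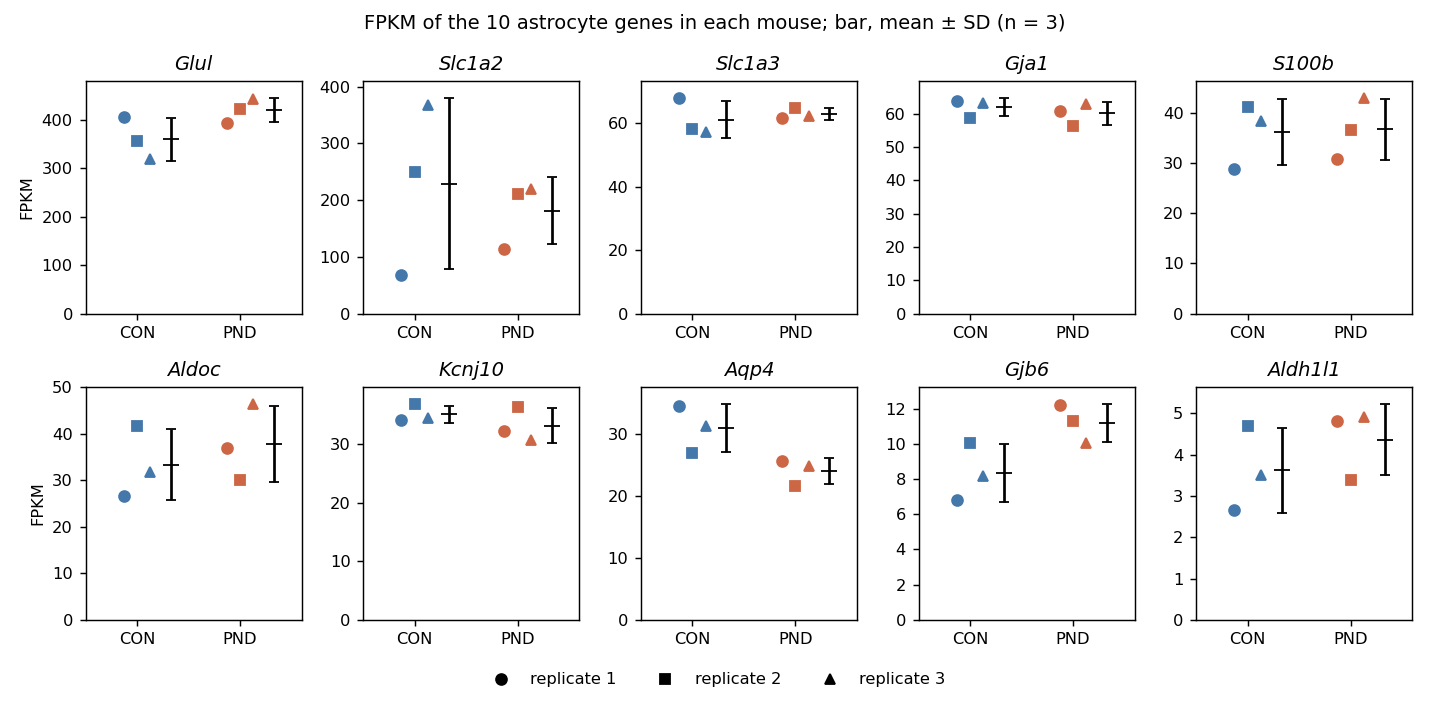
FPKM of each gene in each mouse, with replicates marked by shape and the mean ± SD (n = 3) of each group as a bar; genes are ordered by level and every axis starts at 0. Slc1a2 has the widest scatter, from 68.5 to 367.5 FPKM, Slc1a3, Gja1 and Kcnj10 lie almost flat, and the groups separate for Aqp4 and, barely, for Gjb6.

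Summed in each mouse, the 10 genes made up 772.7, 894.3 and 948.4 FPKM in PND replicates 1 to 3 and 740.1, 884.6 and 954.2 FPKM in CON replicates 1 to 3, or 0.328% to 0.423% of all FPKM. The groups overlapped widely. Without Slc1a2 the sums were 659.5, 683.1 and 729.1 FPKM in the PND group and 671.5, 634.6 and 586.6 FPKM in the CON group, which reverses the order of the CON mice.

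The glutamate transporters gave a pair of very different pictures. Slc1a2 (ENSMUSG00000005089, GRCm38 chr2:102658659-102790784, plus strand) encodes GLT-1, the main glutamate transporter of the adult forebrain. Its FPKM was 113.2, 211.2 and 219.3 in the PND mice and 68.5, 250.0 and 367.5 in the CON mice. The PND values all lay inside the CON range, and the CON mice alone differed 5.36-fold between lowest and highest. The means were 181.2 ± 59.1 and 228.7 ± 150.6 FPKM (SD, n = 3), and the log2 fold change was -0.088 (SE 0.59, 95% interval from -1.47 to 1.30). The unadjusted p was 0.886. The interval takes in changes of more than 2-fold either way, so these mice do not exclude a change of that size. The direction depended on the animals: the log2 fold change was 0.22 without PND replicate 1, 0.13 without CON replicate 2 and 0.41 without CON replicate 3. Without CON replicate 1 it was -0.80 with an unadjusted p of 0.0417 in limma, the single one of 16 alternatives below 0.05, and the limma adjusted p of Slc1a2 was 0.971 at its lowest over the 16.

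The within-group SD of Slc1a2 was 0.97 on the log2 scale, above 97.8% of the 12387 genes averaging 1 FPKM or more. The gene rested on an estimated 6729 to 34672 fragments per library, with a counting error of 1.22% at the lowest. Of the exon bases of Slc1a2, 1.44% overlap Gm13872 on the other strand. The closest gene outside the 10 in shape over the 6 mice, picked after the values were seen, was S100a7a, at a root-mean-square distance of 0.25 log2 units. S100a7a was the nearest of many genes and was low, from 0.417 FPKM in CON replicate 1 to 1.52 FPKM in CON replicate 3. Among the 10 genes the closest to Slc1a2 was S100b, at 0.62. The striatum markers summed to 199.5, 247.2 and 250.0 FPKM in PND replicates 1 to 3, the same order as Slc1a2 there, and to 223.6, 130.4 and 334.3 FPKM in CON replicates 1 to 3. CON replicate 3 was highest in both, while the lowest striatal sum (CON replicate 2) and the lowest Slc1a2 (CON replicate 1) were in different mice. The part of striatal tissue in the Slc1a2 levels was not tested.

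Slc1a3 (ENSMUSG00000005360, chr15:8634124-8710764, minus strand) encodes GLAST, the second astrocyte glutamate transporter. Its FPKM was 61.5, 64.9 and 62.3 in the PND mice and 67.9, 58.1 and 57.3 in the CON mice. The PND values sat within the CON range and very close together. The means were 62.9 ± 1.77 and 61.1 ± 5.89 FPKM, with a log2 fold change of 0.046 (SE 0.10, 95% interval from -0.19 to 0.29). The unadjusted p was 0.668. Among genes averaging 1 FPKM or more, 9.44% had a smaller within-group SD than its 0.10. The direction was higher in 16 of 16 alternatives, down to 0.0019. The ratio of Slc1a2 to Slc1a3 was 1.84, 3.25 and 3.52 in the PND mice and 1.01, 4.30 and 6.41 in the CON mice, so a mouse with nearly equal transcript levels and the mouse with the most uneven ones were both controls. The mean log2 ratio differed by -0.13 between groups (exact permutation test, two-sided, p = 0.8, adjusted p = 0.8 over 4 ratios), where 20 splits allow no p below 0.1.

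Glul (ENSMUSG00000026473, chr1:153899944-153909723, plus strand), the enzyme that joins ammonia to glutamate, had the highest level of the 10 genes. The FPKM was 394.5, 422.5 and 444.0 in the PND mice and 406.5, 356.4 and 318.7 in the CON mice. PND replicates 2 and 3 were above every CON mouse, while PND replicate 1 was below CON replicate 1. The means were 420.3 ± 24.8 and 360.5 ± 44.0 FPKM, with a log2 fold change of 0.23 (SE 0.12, 95% interval from -0.049 to 0.50, unadjusted p = 0.094). The direction was the same in 16 of 16 alternatives, and 2 of them had an unadjusted p below 0.05, quantile normalization (0.0263) and leaving out CON replicate 1 (0.0249). The Glul exons overlap Teddm2 and Mir8114 over 6.29% of their bases, and 1.77% of 100-base stretches are shared with the copy Glns-ps1, so a small part of its reads may belong elsewhere. Glul over Slc1a2 was 3.48, 2.00 and 2.02 in the PND mice and 5.93, 1.43 and 0.867 in the CON mice, a difference of 0.32 in mean log2 ratio (exact permutation test, two-sided, p = 0.8, adjusted p = 0.8 over 4 ratios).

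Of the 16 other genes listed for glutamate and glutamine handling, 15 were tested, 0 passed the cut-off in limma and 0 had an unadjusted p below 0.05, and their median log2 fold change was 0.0058. Slc1a1, the neuronal glutamate transporter, varied from 10.8 to 21.6 FPKM within the PND group and had 14.8 ± 5.93 FPKM there and 12.8 ± 2.71 in the CON group. Slc38a3, a glutamine exporter of astrocytes, was low at 0.909 ± 0.257 and 1.03 ± 0.33 FPKM. Their unadjusted p values were 0.569 and 0.668.

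The connexins of astrocyte coupling also differed from each other. Gja1 (ENSMUSG00000050953, chr10:56377330-56402513, plus strand), connexin 43, had 60.8, 56.4 and 63.0 FPKM in the PND mice and 63.7, 58.8 and 63.2 FPKM in the CON mice. All 6 values lay in a narrow band. The means were 60.1 ± 3.38 and 61.9 ± 2.73 FPKM, with a log2 fold change of -0.043 (SE 0.094, 95% interval from -0.26 to 0.18, unadjusted p = 0.66). Its sign turned in 1 of 16 alternatives, to 0.0016. Its within-group SD of 0.074 was the smallest of the 10, with 3.75% of genes below it, and this interval leaves out a change as large as the fold cut-off. Gjb6 (ENSMUSG00000040055, chr14:57123303-57133611, minus strand), connexin 30, had 12.2, 11.3 and 10.1 FPKM in the PND mice and 6.81, 10.1 and 8.14 FPKM in the CON mice. The groups did not overlap, but PND replicate 3 and CON replicate 2 were equal to the digits given. The means were 11.2 ± 1.06 and 8.34 ± 1.64 FPKM, with a log2 fold change of 0.43 (SE 0.17, 95% interval from 0.033 to 0.83, unadjusted p = 0.0373).

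The log2 fold change of Gjb6 ran from 0.30 to 0.58 over 16 alternatives, and the unadjusted p ran from 0.0079 to 0.121. It was below 0.05 in 10 of them. Those at or above 0.05 left out PND replicate 1, PND replicate 2, CON replicate 1 or CON replicate 3, used no intensity trend, or took the replicate number as a block. Gjb6 rested on an estimated 136 to 288 fragments per library, far fewer than Gja1 or the transporters. The ratio of Gja1 to Gjb6 was 4.99, 5.00 and 6.26 in the PND mice and 9.36, 5.84 and 7.77 in the CON mice. The ratio overlapped only through PND replicate 3 and CON replicate 2, and the mean log2 ratio was lower by 0.48 in the PND group (-0.48, exact permutation test, two-sided, p = 0.2, adjusted p = 0.6 over 4 ratios).

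The stretches just before the annotated starts of both connexin genes are given because the pair form the same kind of channel in the same cells and yet had different levels and spreads. They are the 250 bases before the RefSeq start on GRCm38.p6, read 5′ to 3′ along the gene, from chr10:56377050-56377299 (plus strand) for Gja1 and chr14:57133612-57133861 (minus strand) for Gjb6. Capitals mark matches to the 6 motifs searched on both strands: NFI (TTGGC), SOX (AACAAT), STAT (TTCNNNGAA), GC box (GGGCGG), AP-1 (TGAGTCA) and the CRE core (TGACG).
Gja1: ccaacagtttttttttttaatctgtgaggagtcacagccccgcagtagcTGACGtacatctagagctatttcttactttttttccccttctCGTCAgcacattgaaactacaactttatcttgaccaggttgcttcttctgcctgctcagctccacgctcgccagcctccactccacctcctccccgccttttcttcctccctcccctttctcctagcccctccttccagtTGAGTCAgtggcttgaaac
Gjb6: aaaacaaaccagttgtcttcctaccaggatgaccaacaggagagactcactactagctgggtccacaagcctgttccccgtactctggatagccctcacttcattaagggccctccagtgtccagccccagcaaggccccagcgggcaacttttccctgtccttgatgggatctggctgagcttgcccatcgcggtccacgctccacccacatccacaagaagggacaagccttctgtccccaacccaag
The Gja1 stretch is 50.0% G or C and held 3 matches, the AP-1 letters 19 bases before the start and the CRE core at 159 bases (on the opposite strand) and 201 bases. The Gjb6 stretch is 56.8% G or C and held 0 matches. Of 32851 windows of the same length before annotated starts, 4.46% held the AP-1 letters and 17.8% the CRE core, while the NFI, SOX, STAT and GC box letters were in 41.5%, 9.42%, 7.02% and 32.7%. The AP-1 and CRE letters were added to the search after the sequences had been seen, and a match is a run of letters, not a shown site.

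Among the other genes of gap junctions and junctional coupling, 13 of 14 were tested, 0 passed the cut-off in limma and 0 had an unadjusted p below 0.05, with a median log2 fold change of -0.012. Gjb2, connexin 26, had 3.93 ± 0.77 FPKM in the PND group and 3.73 ± 0.51 in the CON group, with an unadjusted p of 0.751. Hepacam, the adhesion protein that holds astrocyte junctions together, had 11.8 ± 2.23 and 9.92 ± 3.34 FPKM, with an unadjusted p of 0.327.

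Kcnj10 (ENSMUSG00000044708, chr1:172341210-172374085, plus strand), the Kir4.1 channel of potassium uptake, had 32.3, 36.4 and 30.7 FPKM in the PND mice and 34.1, 36.8 and 34.4 FPKM in the CON mice. PND replicates 1 and 3 were below every CON mouse, and PND replicate 2 was within the CON range. The means were 33.2 ± 2.96 and 35.1 ± 1.49 FPKM, with a log2 fold change of -0.085 (SE 0.11, 95% interval from -0.33 to 0.16, unadjusted p = 0.448). It was a steady gene, with 9.2% of genes below its within-group SD. Kcnj16, whose Kir5.1 subunit joins Kir4.1 in mixed channels, had 4.005, 3.21 and 3.99 FPKM in the PND mice and 5.68, 4.15 and 4.96 FPKM in the CON mice. The groups did not overlap, and the log2 fold change was -0.39 with an unadjusted p of 0.0661. That p was below 0.05 in 2 of 16 alternatives. Over the 16 listed genes of potassium, sodium and bicarbonate handling, all tested, 0 passed the cut-off in limma, 0 had an unadjusted p below 0.05, and the median log2 fold change was 0.022.

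Aqp4 (ENSMUSG00000024411, chr18:15389496-15410982, minus strand) was the gene of the 10 with an unadjusted p below 0.05 on the lower side. Its FPKM was 25.6, 21.5 and 24.8 in the PND mice and 34.5, 26.8 and 31.3 in the CON mice. Every PND mouse was below every CON mouse, with CON replicate 2 the closest. The means were 23.9 ± 2.14 and 30.9 ± 3.85 FPKM, so the CON mean was 1.29 times the PND mean, and the log2 fold change was -0.36 (SE 0.13, 95% interval from -0.67 to -0.053, unadjusted p = 0.0275). Over 16 alternatives the log2 fold change ran from -0.46 to -0.28. The groups were also apart under median centring, quantile normalization, equal nuclear totals and the G and C correction, the settings that can change the order of the mice. The unadjusted p ran from 0.0092 to 0.0962 and was below 0.05 in 12 of them. The other 4 used no intensity trend (0.0735) or left out PND replicate 2 (0.0962), CON replicate 1 (0.0774) or CON replicate 3 (0.0746). The limma adjusted p was 0.831 at its lowest.

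The ratio of Aqp4 to Kcnj10, a pair that share the endfoot membrane, was 0.79, 0.591 and 0.807 in the PND mice and 1.01, 0.728 and 0.908 in the CON mice. The groups overlapped, and the mean log2 ratio differed by -0.28 (exact permutation test, two-sided, p = 0.3, adjusted p = 0.6 over 4 ratios). Of the 16 listed genes for water channels and endfoot anchoring, 13 were tested, 0 passed the cut-off in limma, and 1 had an unadjusted p below 0.05, on the higher side. This was Sntb1, a syntrophin of the dystrophin complex, named here after its values were seen, with only 0.768 ± 0.210 FPKM in the PND group and 0.41 ± 0.043 in the CON group (unadjusted p = 0.0457). That p was below 0.05 in 7 of 15 alternatives and lost in the other 8, with no filter (0.0509), quantile normalization (0.0504) or the replicate block (0.0762) and without any of the mice but PND replicate 2, up to 0.15 without PND replicate 3. The limma adjusted p of Sntb1 was 0.9999, and the median of the list was -0.045.

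**Figure D3:**
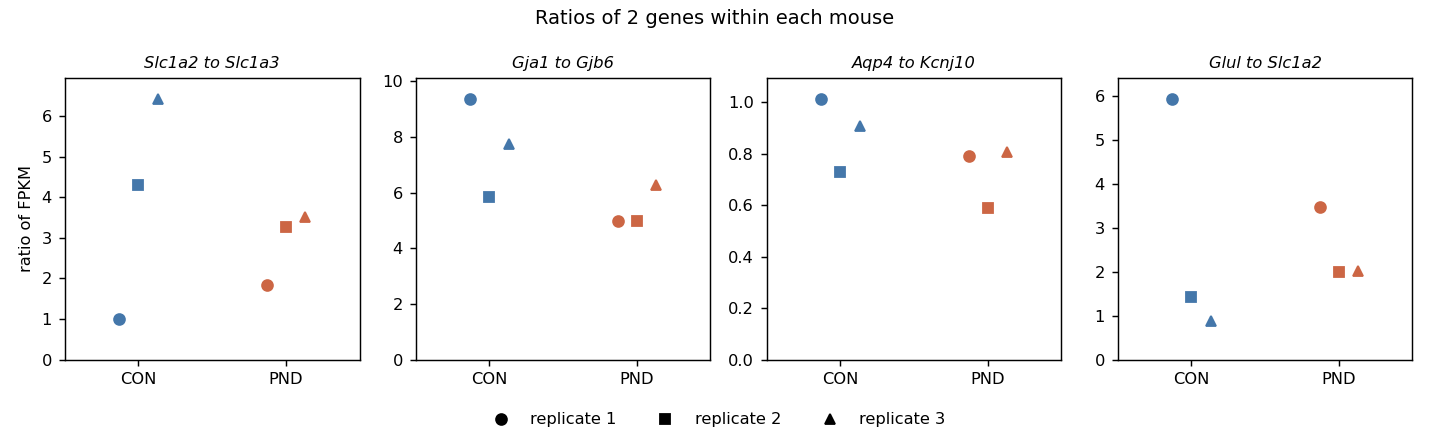
Ratio of FPKM between 2 genes within each mouse for 4 pairs, with replicates marked by shape and axes from 0. For Gja1 to Gjb6 the PND mice sit between 4.99 and 6.26 and the CON mice between 5.84 and 9.36, and for Slc1a2 to Slc1a3 the CON mice spread from 1.01 to 6.41 around all PND mice.

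The cytosolic astrocyte markers varied between mice more than between groups. S100b (ENSMUSG00000033208, chr10:76253853-76261159, plus strand) had 30.8, 36.6 and 42.9 FPKM in the PND mice and 28.8, 41.3 and 38.4 FPKM in the CON mice. The ranges were nearly the same. Its means were 36.8 ± 6.08 and 36.1 ± 6.54 FPKM, with a log2 fold change of 0.028 (SE 0.18, 95% interval from -0.39 to 0.44, unadjusted p = 0.881). The sign turned in 2 of 16 alternatives. Aldoc (ENSMUSG00000017390, chr11:78322968-78327781, plus strand) had 37.0, 30.1 and 46.4 FPKM in the PND mice and 26.7, 41.6 and 31.7 FPKM in the CON mice. Its lowest and highest PND mice were replicates 2 and 3, and its lowest and highest CON mice replicates 1 and 2. The means were 37.8 ± 8.16 and 33.3 ± 7.61 FPKM, with a log2 fold change of 0.18 (SE 0.21, 95% interval from -0.31 to 0.67, unadjusted p = 0.413).

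Aldh1l1 (ENSMUSG00000030088, chr6:90486427-90600203, plus strand) had 4.81, 3.38 and 4.91 FPKM in the PND mice and 2.66, 4.71 and 3.50 FPKM in the CON mice, with the same low and high mice as Aldoc. The means were 4.37 ± 0.85 and 3.62 ± 1.03 FPKM, with a log2 fold change of 0.28 (SE 0.25, 95% interval from -0.31 to 0.87, unadjusted p = 0.301). It was the least abundant of the 10 and rested on an estimated 90 to 208 fragments per library, with a counting error of 10.5% at the lowest. Overlaps with Gm45901 and Gm15756 cover 13.4% of its exon bases. Among the listed aldolases and folate-linked aldehyde dehydrogenases, all 13 tested, 0 passed the cut-off in limma and 1 had an unadjusted p below 0.05, with a median log2 fold change of 0.20. This 1 was Aldh1a1, which makes retinoic acid, at 9.61 ± 0.98 FPKM in the PND group and 6.72 ± 0.60 in the CON group (unadjusted p = 0.0072, log2 fold change 0.51), named after its values were seen. The limma adjusted p of Aldh1a1 was 0.9999. Aldoa, the aldolase of muscle and most tissues, swung as Aldoc did, from 26.9 to 66.8 FPKM in the PND group and from 25.6 to 76.4 in the CON group, with an unadjusted p of 0.731.

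The swings of Aldh1l1 and Aldoc moved with base composition. The transcripts of the 10 genes ran from 41.4% G or C for Aqp4 to 51.9% for Aldoc and 54.4% for Aldh1l1. The genes richest in G and C, the top decile, with a median content of 58.5%, had median log2 deviations of 0.11, -0.30 and 0.37 in PND replicates 1 to 3 and -0.56, 0.49 and -0.035 in CON replicates 1 to 3. Aldh1l1 deviated from its mean by 0.29, -0.20 and 0.32 and by -0.53, 0.27 and -0.15 in the same mice. Aldoc deviated by 0.081, -0.21 and 0.41 and by -0.39, 0.25 and -0.14. After a correction for G and C content in each sample, the within-group SD of Aldh1l1 went from 0.351 to 0.105 and that of Aldoc from 0.317 to 0.175. Those of Aqp4, Gjb6, Slc1a3 and S100b were also smaller, while those of Gja1, Kcnj10 and Glul were larger. The SD of Slc1a2 went from 0.97 to 1.01, so its scatter was as large after the correction. Under the correction Aqp4 and Gjb6 had log2 fold changes of -0.32 and 0.42 and unadjusted p values of 0.0229 and 0.0222, and the groups of Aldh1l1 no longer overlapped, at 0.22 with an unadjusted p of 0.123. The cause of the difference in base composition between libraries was not tested.

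**Figure D4:**
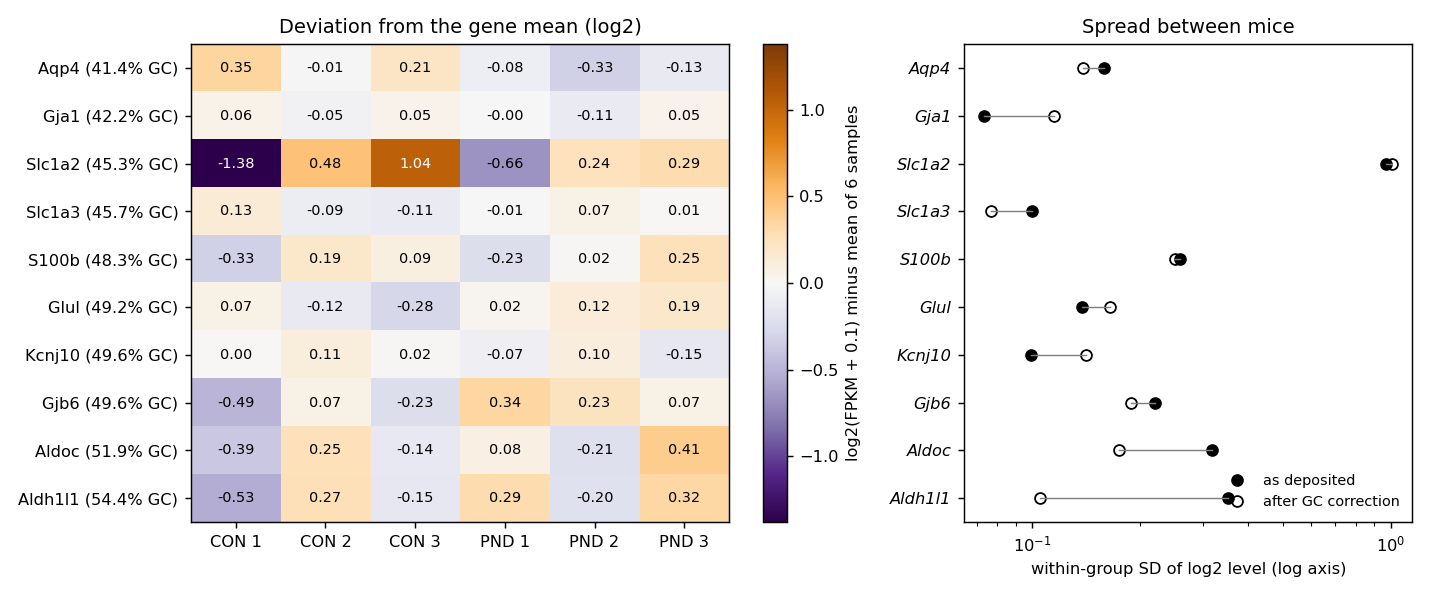
Left, log2(FPKM + 0.1) of each gene in each mouse minus its mean over the 6 mice, with genes ordered from low to high G and C content; right, the within-group SD of each gene on a log axis as deposited (filled) and after the G and C correction (open). Aldoc and Aldh1l1 swing together from mouse to mouse and have a smaller SD after the correction, and Slc1a2 keeps an SD near 1.

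The 10 genes did not vary as a block. Averaged over the 10, the log2 deviations were -0.032, -0.0076 and 0.13 in PND replicates 1 to 3 and -0.25, 0.11 and 0.049 in CON replicates 1 to 3. S100b was the closest of the 10 to this average, at a root-mean-square distance of 0.106 log2 units, and Slc1a2 the farthest, at 0.693. The closest pairs among the 10 were Slc1a3 with Gja1 at 0.105, Glul with Slc1a3 at 0.111 and Aldh1l1 with Aldoc at 0.112. Of all other genes averaging 1 FPKM or more, the 5 closest to the average over these 6 mice were Gm37465 (0.0232), Nsfl1c (0.0349), Ndufb8 (0.0383), Coq5 (0.0396) and Rabggtb (0.0402). All 6 points of such a profile share their libraries, and flat genes are close to any flat average.

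Over the 111 genes of the related lists, those of transport and coupling above included, 106 were tested. The lists were chosen with earlier results of these data known, so their shares are a description and not an independent test. At an unadjusted p below 0.05, 6 of the 106 were higher (5.66%, beside 1.73% of all genes) and 0 lower (beside 1.40%). Only 1 passed the cut-off, 0.943% of those tested, and the median log2 fold change was 0.049. That gene was Etnppl, an astrocyte enzyme that breaks down phosphoethanolamine, with 8.30, 9.20 and 7.57 FPKM in the PND mice and 5.08, 2.95 and 4.57 FPKM in the CON mice. The groups did not overlap, the means were 8.36 ± 0.82 and 4.20 ± 1.11 FPKM, and the log2 fold change was 1.01 (SE 0.22, unadjusted p = 0.0022). The limma adjusted p was 0.9965, and 0.46 at its lowest over 16 alternatives. Its log2 fold change was just past the cut-off and fell under it with a pseudocount of 1 FPKM (0.87), without PND replicate 2 (0.94) and without CON replicate 2 (0.78).

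Gfap, the intermediate filament of astrocytes that is commonly read as a sign of their reaction to injury, had 22.9, 17.7 and 24.7 FPKM in the PND mice and 13.0, 14.9 and 13.0 FPKM in the CON mice. No PND mouse was as low as any CON mouse. The means were 21.8 ± 3.65 and 13.6 ± 1.10 FPKM, 0.66 apart on the log2 scale (SE 0.15, unadjusted p = 0.0029), and that p was below 0.05 in 16 of 16 alternatives. Its limma adjusted p was 0.9999 and 0.683 at its lowest. Of the other 3 intermediate filament genes listed, Nes, the filament of neural precursors, was apart in the opposite direction, with every PND mouse below every CON mouse, at a log2 fold change of -0.50 and an unadjusted p of 0.0645. Vim and Synm overlapped between groups, with unadjusted p values of 0.886 and 0.526, and the median of the 4 was -0.027.

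The 33 other astrocyte identity genes were likewise listed with earlier results of these data known. Of them, 3 had an unadjusted p below 0.05, all higher, beside 1.73% higher and 1.40% lower over all genes. The list median was 0.085. Beside Etnppl these were Htra1, a secreted protease, with 27.2 ± 2.56 and 18.2 ± 0.96 FPKM (unadjusted p = 0.0013), and Itih3, a subunit of a matrix-binding inhibitor, with 5.85 ± 0.94 and 3.97 ± 0.74 FPKM (unadjusted p = 0.0227), both named after their values were seen. Their limma adjusted p values were 0.787 and 0.9999. The unadjusted p of Htra1 was 0.0956 under the G and C correction and 0.149 with the replicate block added to it. That of Itih3 was at or above 0.05 in 5 of 16 alternatives, with the replicate block (0.0579), with the block and the G and C correction (0.0511), and without PND replicate 1 (0.0921), CON replicate 1 (0.0631) or CON replicate 2 (0.0534). Sox9, the transcription factor of astrocyte nuclei, had 9.21 ± 2.00 FPKM in the PND group and 10.8 ± 0.67 in the CON group, with an unadjusted p of 0.195 that was below 0.05 in 1 of 16 alternatives.

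**Figure D5:**
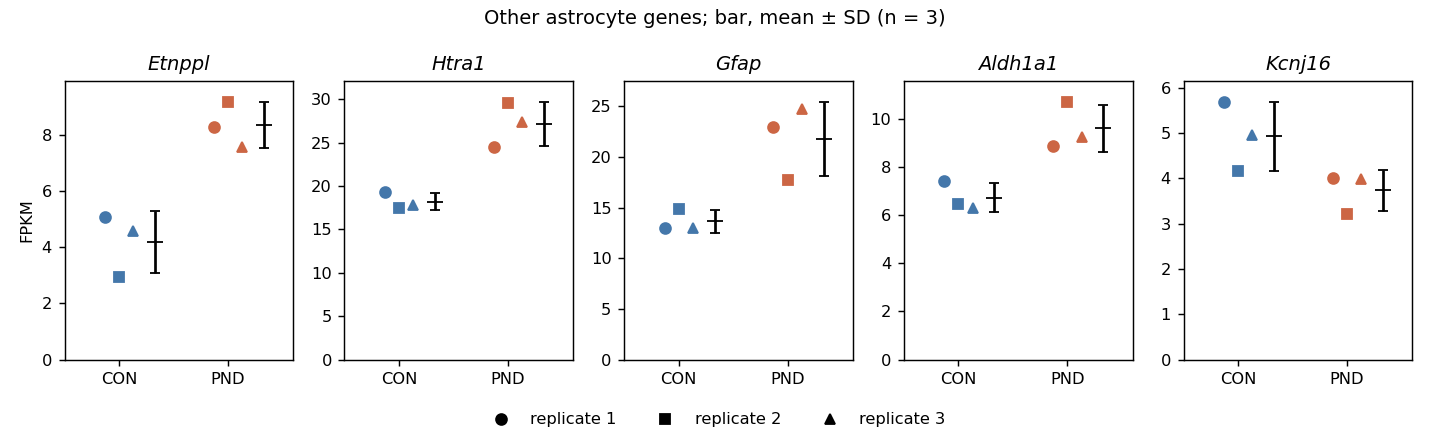
FPKM of 5 astrocyte genes outside the 10 in each mouse, with replicates marked by shape and the mean ± SD (n = 3) of each group as a bar, on axes from 0. The PND mice lie above all CON mice for Etnppl, Htra1, Gfap and Aldh1a1 and below them for Kcnj16. All 5 are thus genes whose groups do not overlap, and they do not stand for the related lists. Sox9, Gjb2, Hepacam, Slc1a1, Slc38a3 and Aldoa overlapped between groups and are not drawn.

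Markers of other cells were set beside these values. Oligodendrocyte markers summed to 329 to 409 FPKM in the PND group and 381 to 417 in the CON group, their precursors to 15.3 to 21.8 and 16.9 to 21.4, microglia markers to 55.5 to 65.7 and 52.3 to 70.8, and endothelial markers to 42.6 to 49.5 and 39.6 to 50.2. All of these overlapped. Choroid plexus and ependymal markers did not, at 3.91 to 5.41 FPKM against 2.31 to 3.48, with 5 of 6 tested on the higher side, all low. Single markers with an unadjusted p below 0.05, named after their values were seen, included Clic6 of choroid plexus and Ly6c1 of endothelium, both higher, and Opalin of oligodendrocytes and P2ry12 of microglia, both lower. Of their lists, 7 of 10 oligodendrocyte markers were on the lower side (median log2 fold change -0.16), while 7 of 10 microglia markers were on the higher side (0.054). The 8 endothelial markers were split, with 4 on the higher side and 4 on the lower (0.14). The part of tissue composition in the levels of Aqp4 and Gjb6 was not tested.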

How the data were processed

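Prefrontal cortex RNA of 3 PND and 3 CON mice was read as 6 deposited tables, each holding FPKM values that the authors computed after ribosomal RNA depletion, read filtering with Seqtk, HISAT2 alignment, StringTie quantification and TMM scaling. The processing notes of the submitters list Bowtie 0.12.2 and the builds mm8 and mm9 without a role. The build of the mRNA alignment was not given in the sources used here. FPKM tables keep no counts, so depth was estimated from the FPKM steps of genes with few fragments, where 41.6% to 44.8% of values between 0.5 and 20.5 fragments came out whole within 0.05. No count test was run. No source used here says that reads were assigned by strand, so overlapping genes cannot be separated.

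The tables were joined by Ensembl ID, and 20866 of 21006 IDs matched the annotation (GENCODE M21 on GRCm38), from which all gene coordinates come. Genes averaging 0.1 FPKM or more were tested on log2(FPKM + 0.1) with limma 3.58.1 in R 4.3.3 (two-sided, intensity trend, no covariate), with Benjamini-Hochberg adjustment over all genes. Log2 fold changes are on that scale and understate changes of low genes. All p-values measure the spread between 3 mice a group. The fit was tested on simulated data. Ratios within a mouse were compared by exact permutation. Promoter letters came from RefSeq (GRCm38.p6), where 9 of 10 genes matched, and those of the 2 connexins are shown.

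Named genes were the 10 by symbol, 8 related genes picked by symbol, any related gene past the cut-off and the 5 closest in profile. Others are marked in the text, and some genes the rule named are not reported here. The 10 genes and all lists were chosen with earlier results of these data known. Alternatives changed the pseudocount (1 FPKM), the filter, the scaling, the variance trend, G and C content (a correction first tried in earlier work on these data), the replicate block and each mouse in turn.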

Additional observations from a re-analysis of the deposited data

How the results depend on the processing

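Over 16 alternatives, 0 of 10 genes passed the cut-off in each. The count over all genes, 241, was 25 with a pseudocount of 1 FPKM, 59 with a filter at 1 FPKM, and 235 to 388 when 1 mouse was left out, with 388 without CON replicate 2. The median log2 fold change of the 10 was -0.0036 to 0.17 when 1 mouse was left out. Leaving out 1 mouse also turned the sign of some log2 fold changes, with ranges of -0.80 to 0.41 for Slc1a2, -0.0802 to 0.0016 for Gja1, -0.13 to 0.15 for S100b, -0.14 to 0.36 for Slc1a1, -0.40 to 0.0703 for Slc38a3, -0.083 to 0.18 for Gjb2, -0.00032 to 0.51 for Hepacam, -0.18 to 0.61 for Aldoa, -0.93 to 0.41 for the Slc1a2 to Slc1a3 log2 ratio and -0.27 to 1.12 for Glul to Slc1a2. The cause was not tested beyond the mouse left out.

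Same-numbered mice did not deviate together (correlations -0.0487, -0.451 and 0.0274), so the numbers were not taken as pairs. With the replicate block, 226 genes and 0 of the 10 passed the cut-off, and Aqp4 alone of the 10 had an unadjusted p below 0.05. Each group held 3 mice, and Gjb6 and Aldh1l1 rested on an estimated 90 to 288 fragments per library.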
